A study of Homo sapiens with 12 samples.

Results

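A multiple exon skip is a splicing choice over a block of at least 2 neighbouring exons: the block is either kept, or one junction joins the exon before it to the exon after it. The deposited file of such events lists 5790 of them in AsPC-1, a human cell line grown from pancreatic cancer, and 5132 (in 2794 genes) had a mean of at least 20 reads per library. Reads were summed here as the mean of the junction into the block and the junction out of it, plus the skipping junction. These 5132 events are described, out of 42020 events of 5 kinds that passed the same minimum. Just inside the minimum lay an event of RGS5 (20.04 reads, PSI 0.901) and events of DAG1 and TRAIP (PSI 0.231 and 0.951) with 20 reads, and just outside it events of LCOR, EMSY and LHFPL2 (each 19.96 reads, PSI 0.488, 0.886 and 0.876). PSI, percent spliced in, is the share of the form that keeps the block, and the files give it as a fraction.

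The 12 libraries of poly(A) RNA come as 3 replicates, lettered A to C, in each of 4 groups. Cells in every group received an siRNA by lipid transfection: a scrambled one, called siControl, or one that targets ARNT, called siARNT. The cells were split on the next day and spent 24 h at 1% O2 (hypoxia) or stayed in normoxia. ARNT is the common partner of the hypoxia-inducible factors, so the design asks what hypoxia does with and without that partner. The knockdown is transient and partial, in 1 cell line. The labels name triplicate wells but no separate cultures, so p-values measure the spread between these samples, which may be technical.

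Splicing joins exons through a snRNP machinery that pairs splice sites across introns or across short exons. Proteins of the SR and hnRNP families bind near exons and shift the choice of sites. Neighbouring exons can be chosen as a unit, as in cassettes that code for 1 protein domain, or one by one. A block whose length is a multiple of 3 can be dropped from coding sequence with the reading frame kept, and other lengths shift the frame, which often leads to decay of the RNA.

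The blocks below are shown because they lie wholly in coding sequence, their PSI is described further down, and they show the ways in which a block can keep the frame. Sequences are those of GENCODE 29 transcripts (GRCh38), matched by the lengths of every exon and intron in the block, 5′ to 3′, with every other exon of the block in capitals. In CD46, ADGRE5 and CASK each exon is itself a multiple of 3. In BCO2 and DDC no single exon is, and only the block as a whole keeps the frame. None of the 5 blocks held a stop codon in frame (0 in each).
CD46 exons 7 to 8 of CD46-201, chr1:207767607-207767823, + strand, 90 nt: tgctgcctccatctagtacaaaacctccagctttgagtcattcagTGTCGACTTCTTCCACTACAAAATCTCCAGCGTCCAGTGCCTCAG
ADGRE5 exons 5 to 6 of ADGRE5-201, chr19:14396342-14397223, + strand, 279 nt: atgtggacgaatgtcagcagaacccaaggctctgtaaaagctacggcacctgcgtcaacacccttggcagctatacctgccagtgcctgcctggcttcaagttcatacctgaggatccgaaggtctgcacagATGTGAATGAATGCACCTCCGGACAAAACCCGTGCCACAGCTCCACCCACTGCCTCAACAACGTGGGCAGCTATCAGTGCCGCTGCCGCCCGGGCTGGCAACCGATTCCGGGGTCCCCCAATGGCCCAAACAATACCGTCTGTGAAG
BCO2 exons 4 to 5 of BCO2-201, chr11:112193879-112194755, + strand, 219 nt: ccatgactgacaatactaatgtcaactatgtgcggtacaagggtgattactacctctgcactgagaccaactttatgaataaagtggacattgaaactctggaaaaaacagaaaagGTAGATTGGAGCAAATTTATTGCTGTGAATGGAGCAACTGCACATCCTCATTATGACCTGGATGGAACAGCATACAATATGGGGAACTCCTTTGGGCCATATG
CASK exons 19 to 20 of CASK-225, chrX:41555600-41557100, - strand, 105 nt: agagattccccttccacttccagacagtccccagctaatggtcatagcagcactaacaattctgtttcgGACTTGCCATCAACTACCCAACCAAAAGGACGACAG
DDC exons 8 to 10 of DDC-207, chr7:50479787-50499242, - strand, 240 nt: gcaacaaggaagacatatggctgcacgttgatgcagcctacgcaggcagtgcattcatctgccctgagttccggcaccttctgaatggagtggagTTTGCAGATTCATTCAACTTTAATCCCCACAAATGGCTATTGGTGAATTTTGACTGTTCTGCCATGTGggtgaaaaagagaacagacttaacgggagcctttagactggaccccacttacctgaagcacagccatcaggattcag

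Over the 12 libraries the junctions of these events held 1.855 to 4.092 M reads per library, of which 0.094 to 0.218 M were on skipping junctions. ARNT stood at 62.4 ± 1.53 CPM in normoxia siControl and 13.4 ± 0.56 in normoxia siARNT, and at 69.1 ± 3.81 and 15.3 ± 1.04 in the hypoxia groups (SD, n = 3). All 12 of 12 epithelial and pancreatic ductal markers were at 1 CPM or more, against 1 of 6 fibroblast, 1 of 6 leukocyte and 0 of 3 endothelial markers. Event coordinates are printed as the file gives them, in a build the files do not name: only 0.273% of 13536 inner exons lay at the same place in GRCh38.

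Most blocks were small and mostly kept. Of the 5132 events 3459 (67.4%) skip 2 exons, 1000 (19.5%) skip 3, 641 (12.5%) skip 4 to 9 and 32 (0.624%) skip 10 or more. The median block was 262 nt long (range 39 to 8293 nt). The mean PSI over 12 libraries was above 0.95 in 3156 events (61.5%), from 0.2 to 0.8 in 554 (10.8%) and at most 0.05 in 43 (0.838%), with a median of 0.969. The level was alike over block sizes: the median was 0.968 for 2 exons, 0.97 for 3 and 0.976 for 4 or more.

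The reading frame was kept by 2267 of 5132 blocks (44.2%), and by 1124 of 2063 blocks (54.5%) that matched a GENCODE 29 transcript and lay wholly in its coding sequence. Among the 1530 blocks of 2 exons whose length is a multiple of 3, neither exon was one by itself in 898 (58.7%), as in BCO2. A mean PSI of 0.9 or lower was found in 533 of 2267 blocks (23.5%) that keep the frame and in 690 of 2865 (24.1%) that do not. In all, 2940 blocks (57.3%) matched a transcript by exon and intron lengths. For 1673 of these the skipping junction itself is in GENCODE 29, and 387 (23.1%) of them had a mean PSI of 0.9 or lower. Of the 1267 whose skipping junction is not annotated, 85 (6.71%) did.

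**Figure D1:**
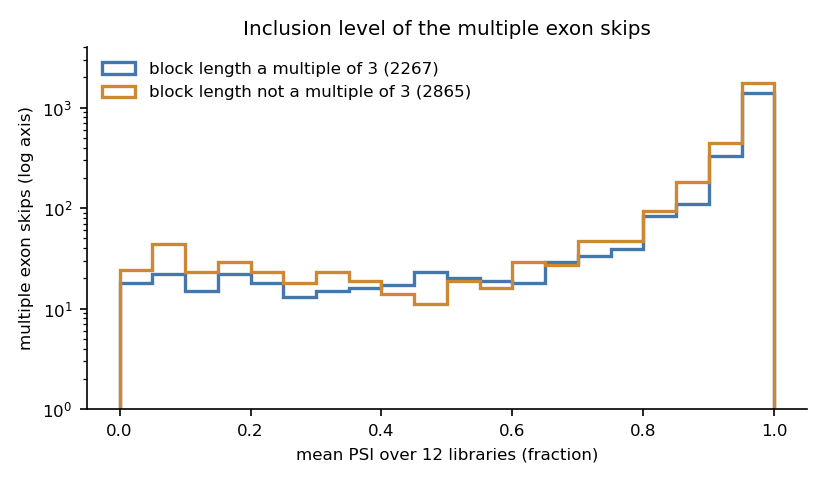
Number of multiple exon skips (log axis) by mean PSI over 12 libraries, in bins of equal width, for blocks whose length is a multiple of 3 (blue) and those whose length is not (orange). Both lines rise towards full inclusion: 3156 of 5132 events have a mean PSI above 0.95.

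The extremes show what the event file holds. The events with the most inner exons were in NBPF20 (28 exons, mean PSI from 0.153 to 0.23 over the 4 groups), a gene of a family of near-identical copies whose reads cannot be placed with certainty, in CIT (22 exons), which encodes citron kinase, and in PDE4DIP (21 exons). In NBPF20 the PSI of single libraries ran from 0.08 to 0.38. Its last junction had 136 reads in normoxia siControl C, 130 in normoxia siARNT C, and 0 or 1 in every other library. CIT held 0 to 13 skipping reads per library and PDE4DIP 1 to 5. The longest blocks were in OPN3 (5 exons, 8293 nt), PLEKHA1 (4 exons, 6698 nt) and GOLGA4 (15 exons, 5976 nt). OPN3, an opsin, had PSI 0.25, 0.22 and 0.24 in normoxia siControl, while the mean PSI was 0.995 in PLEKHA1 and 0.983 in GOLGA4. Mean reads into and out of the block differed by 9.98 times in OPN3, 25.7 times in PLEKHA1 and 6.48 times in GOLGA4. PSI in these 3 blocks thus averages unlike junctions and is not the share of reads that keep the whole block.

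The 8 genes with the most reads among blocks of intermediate PSI were CD46, CDH17, HNRNPA2B1, PPIA, RPL6, RPLP0, SERPINE2 and ENSG00000263809. PPIA, the prolyl isomerase cyclophilin A, had PSI 0.77, 0.76 and 0.77 in normoxia siControl and 0.74 to 0.77 in the other 9 libraries. RPL6, a protein of the large ribosomal subunit, ran from 0.73 to 0.77, and CDH17, a cadherin of intestinal epithelium, from 0.72 to 0.79. RPL6 and PPIA have many processed copies in the genome, so their reads are less certain. ENSG00000263809 held 13700 reads per library on its last junction while its gene count was at most 0.111 CPM in any group mean, so its place in that gene is uncertain. No call was made for CDH17, PPIA, RPL6 or RPLP0 in any of the 5 comparisons.

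A block of exons is kept as a unit only if reads enter and leave it at like rates, and this held for a minority. The first and last junctions of the block were within 2 times of each other in 1876 of 5132 events (36.6%), and first, last and inner junctions all were in 1359 (26.5%). In PPIA 17900 reads per library entered the block and 2010 left it, with 19.7 between its 2 exons. PSI then averages unlike junctions. Its changes mostly follow the end with more reads, and its level is not the inclusion of any single exon. In DAP3, a mitochondrial ribosome protein, 928, 1020 and 1020 reads entered, linked and left the 2 exons, and PSI was 0.97 to 0.99 in all 12 libraries.

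For blocks of 2 exons the single exon skips in the deposited file give the alternative choice. Among 3459 such blocks 1607 had no single skip of either exon listed, and 413 had both. Skipping both at once held more than 50% of all skipping reads in 2066 blocks (59.7%), counting an unlisted single skip as 0. By this rule the 1607 blocks without a listed single skip count as wholly joint, and they make up most of the 2066. An unlisted skip need not be absent, so the share is no measure of how often neighbouring exons are skipped together. In CD46 the joint skip had 462 reads per library and the skip of exon 7 alone 1630, so 22.1% of skips took both exons. In BCO2, which encodes a carotenoid-cleaving dioxygenase, the joint skip had 11.2 reads and the skip of the second exon alone 2.42 (82.2% joint). The single skip of either exon is not listed for PPIA or CDH17.

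Skipping reads came and went between libraries in a part of the events, and this bears on every comparison. In 393 events (7.66%) at least 1 library had 0 skipping reads where at least 10 were expected from the share in the other libraries, and in 138 (2.69%) 6 or more libraries did. The number of such events per library was 99 in hypoxia siARNT A and 145 to 171 in the other 11. ITGB1, the integrin beta 1 subunit, had 1959 skipping reads in normoxia siARNT A and 0 in the other 11 libraries, among 10400 reads entering the block. LDHA, lactate dehydrogenase A, had 6019, 0 and 2592 in normoxia siControl, 8292, 0 and 0 in hypoxia siControl, and 0 in all 6 siARNT libraries. HNRNPA1, a splicing repressor, had 234 in hypoxia siARNT B alone. The cause of these zeros was not tested, and no direction is drawn from them.

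**Figure D2:**
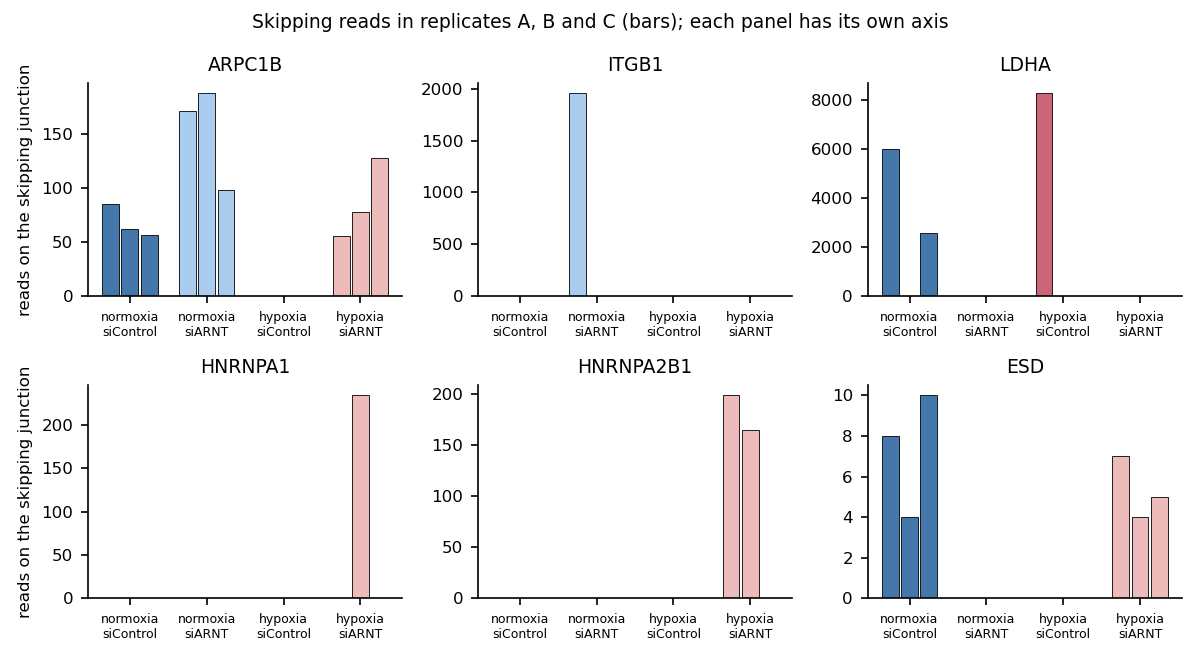
Reads on the skipping junction in replicates A, B and C (3 bars per group) for 6 blocks; each vertical axis starts at 0 and has its own scale. ITGB1 has 1959 reads in 1 library and 0 in 11, and ARPC1B has 0 in the 3 hypoxia siControl libraries only.

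Inclusion was compared between groups with edgeR's quasi-likelihood test on inclusion and skipping reads of 39348 events of 5 kinds, of which 4640 were multiple exon skips with at least 10 reads of each form. A call is an adjusted p (Benjamini-Hochberg over all events) under 0.05. For multiple exon skips the deposited PSI also averages in the inner junctions, while the test uses the first and last junction only. An adjusted p is thus not a test of the PSI printed beside it. For hypoxia in siControl 1 of 4640 events was called (0.0216%, and 0.00254% of all kinds), for hypoxia in siARNT 0 (0.0%), for siARNT in normoxia 0 (0.0%), for siARNT in hypoxia 1 (0.0216%, and 0.0102% of all kinds) and for the interaction 0 (0.0%). At an unadjusted p under 0.05 there were 196 (4.22%, against 4.57% of all kinds), 150 (3.23%, against 3.46%), 239 (5.15%, against 5.6%), 209 (4.5%, against 5.28%) and 182 (3.92%, against 3.69%). DESeq2 called 10, 5, 22, 9 and 8, and limma 1, 2, 0, 3 and 2. For hypoxia in siARNT 0.00254% of all kinds were called. The PSI of the 2 groups did not overlap in 308 of 5129 events (6.01%, against 7.09% of all kinds) for hypoxia in siControl and in 253 (4.93%, against 6.01%) for hypoxia in siARNT. It did not overlap in 365 (7.12%, against 8.5%) for siARNT in normoxia and in 309 (6.03%, against 7.41%) for siARNT in hypoxia. A PSI difference of at least 0.1 without overlap was found in 55 (1.07%, against 1.38%) and 48 (0.936%, against 1.05%) events for hypoxia, and in 73 (1.42%, against 1.9%) and 69 (1.35%, against 1.64%) for siARNT.

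Both calls were the same block of ARPC1B, a subunit of the Arp2/3 complex that branches actin filaments (2 exons, 223 and 189 nt, chromosome 7, 98985662 to 98986466). Its PSI was 0.88, 0.91 and 0.90 in normoxia siControl, 0.90, 0.94 and 0.92 in normoxia siARNT, 1.00 in each hypoxia siControl library, and 0.92, 0.92 and 0.90 in hypoxia siARNT. Skipping reads were 85, 62 and 57, then 171, 188 and 98, then 0, 0 and 0, then 56, 78 and 128 in the same order. The adjusted p was 0.0412 for hypoxia in siControl and 0.0257 for siARNT in hypoxia. The fitted ratio rests on the 3 libraries at 0 and is no measure of size, and with 1 library left out the call held in 3 of 12 fits for each. Of the inclusion reads, 3060 per library entered the block and 16.3 left it.

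A second fit, chosen after the data had been seen, kept the 11169 events with a mean of at least 10 reads of each form per library and no library at 0 where at least 10 reads were expected. It held 1133 multiple exon skips of 801 genes, called well covered below. It called 1 event for hypoxia in siControl (0.0883%, against 0.0895% of all kinds) and 0 for hypoxia in siARNT (0.0%, against 0.0895%). It called 23 for siARNT in normoxia (2.03%, against 2.21%), 18 for siARNT in hypoxia (1.59%, against 1.65%) and 0 for the interaction (0.0% of both). At an unadjusted p under 0.05 it had 118 events for hypoxia in siControl (10.4%, against 9.9%), 81 for hypoxia in siARNT (7.15%, against 7.78%), 169 for siARNT in normoxia (14.9%, against 15.4%), 130 for siARNT in hypoxia (11.5%, against 12.7%) and 78 for the interaction (6.88%, against 6.03%). The calls depended on the choice of events: with libraries at 0 kept, the same minimum gave 4 for siARNT in normoxia and 3 in hypoxia, and leaving out 1 library at a time gave 6 to 28 and 5 to 18. The lowest counts were without normoxia siControl A (6) and without hypoxia siControl A, hypoxia siARNT B or hypoxia siARNT C (5 each). DESeq2 called 2, 1, 9, 7 and 0 of the well covered events in the 5 comparisons, and limma 0, 0, 4, 3 and 0. The shares called among multiple exon skips were thus near those of all events. The changes described next for siARNT passed this second fit and not the first, where their adjusted p ran from 0.269 to 0.931.

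The 23 events called for siARNT in normoxia were in 20 gene IDs, with inclusion higher in 11 (0.971% of those tested, against 0.806% of all kinds) and lower in 12, and the PSI of the groups did not overlap in 20. The 18 called in hypoxia were in 17 gene IDs, with 3 higher (0.265%, against 0.475%) and 15 lower, and did not overlap in 18. An end junction stood at 0 in at least 1 library where 10 reads were expected in 58 of the 1133 well covered events (5.12%). Among the calls these were ARPC1A in normoxia (10 libraries, inclusion higher) and ANXA2 in hypoxia (5 libraries, among them all 3 of hypoxia siControl, inclusion higher), and no direction is drawn from either. The siARNT comparisons in normoxia and in hypoxia share no library, but they need not be independent. Cells were split after transfection, so both may rest on the same transfections, and both come from the same fit. The lists have 7 events in common (30.4% of the first list and 38.9% of the second), all 7 in the same direction: RBM39, HNRNPA2B1, PAM, NT5C3A and 3 blocks of NPIPA8 and NPIPA9. The common share over all kinds of event was not computed. The interaction fit called none of them, so no difference in response between normoxia and hypoxia was shown.

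**Figure D3:**
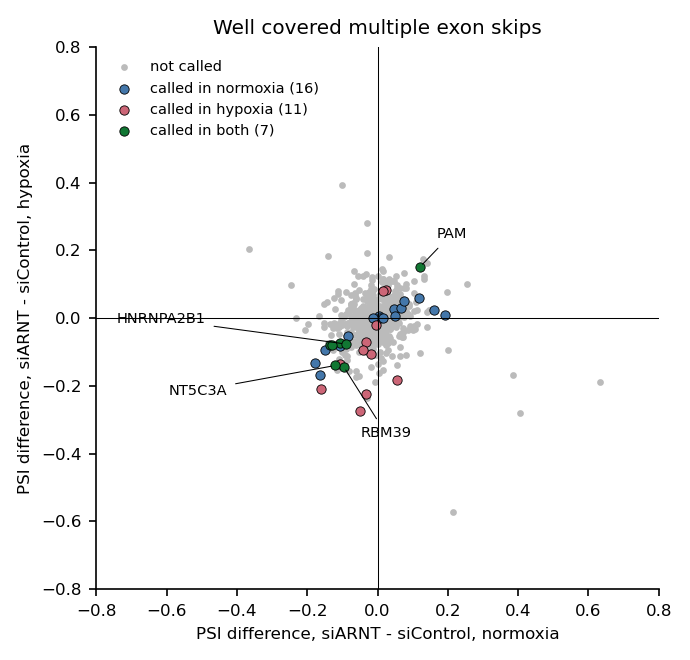
PSI difference between siARNT and siControl in normoxia (horizontal) and in hypoxia (vertical) for 1133 well covered multiple exon skips; coloured points were called in normoxia (16), in hypoxia (11) or in both (7). The 7 called in both lie in the lower left or upper right quadrant.

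RBM39, an SR-like splicing factor, lost inclusion of a 2-exon block (73 and 155 nt, chromosome 20, 34327315 to 34328519) with siARNT. PSI was 0.26, 0.26 and 0.26 in normoxia siControl and 0.15, 0.16 and 0.18 in normoxia siARNT. In hypoxia it was 0.29, 0.27 and 0.25 in siControl and 0.13, 0.12 and 0.13 in siARNT. No siARNT library reached any siControl library. The PSI difference was -0.097 ± 0.0088 (SE) in normoxia and -0.143 ± 0.012 in hypoxia, and the log2 ratio of inclusion to skipping fell by 0.85 (SE 0.14, edgeR adjusted p 0.00273) and 1.31 (SE 0.15, adjusted p 9.7e-05). Both calls held in 12 of 12 fits with 1 library left out and with DESeq2 and limma. Reads into the block (236 per library) outnumbered reads out of it (18.6), and the first junction alone gave both calls (log2 -0.91 and -1.31, adjusted p 0.0234 and 0.00186). With the last junction alone the log2 ratio was -0.14 in normoxia (adjusted p 0.937) and -1.30 in hypoxia (adjusted p 0.115). RBM39 itself stood at 424, 372, 492 and 397 CPM in the 4 groups (normoxia siControl and siARNT, then hypoxia siControl and siARNT), and its fall with siARNT was called in hypoxia only (log2 fold change -0.31, adjusted p 0.011). In bulk RNA, fewer cells of a kind and less RNA per cell cannot be told apart.

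HNRNPA2B1 encodes an abundant hnRNP that binds pre-mRNA. A block of 38 and 136 nt (chromosome 7, 26230613 to 26231958) had PSI 0.86, 0.84 and 0.84 in normoxia siControl and 0.76, 0.75 and 0.76 in normoxia siARNT. In hypoxia it had 0.85 in each siControl library and 0.80, 0.77 and 0.75 in siARNT. The groups did not overlap under either oxygen level. The log2 ratio fell by 0.90 (SE 0.15, edgeR adjusted p 0.00291) in normoxia and by 0.72 (SE 0.15, adjusted p 0.0192) in hypoxia, where the call held in 7 of 12 fits with 1 library left out. Only 1.58 reads per library linked the 2 exons, against 2590 into the block, and 57.9% of skips took both exons. Changes in PSI thus mostly follow the junction into the block, and the level is not the inclusion of either exon. The gene stood at 1240 CPM in normoxia siControl and 973 in normoxia siARNT, a fall of 0.35 on the log2 scale (adjusted p 0.00239).

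A neighbouring HNRNPA2B1 block (24 and 75 nt), with 772 skipping reads per library, was not called: PSI was 0.72, 0.72 and 0.73 in normoxia siControl and 0.74, 0.77 and 0.74 in normoxia siARNT. A 3-exon block that contains it had skipping reads in 2 libraries only, 199 and 165 in hypoxia siARNT A and B. HNRNPA2B1 is thus a gene with 1 called block among several.

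PAM, the enzyme that amidates peptide hormones, gained inclusion with siARNT. Its block (321 and 54 nt, chromosome 5, 102309820 to 102323275) had PSI 0.37, 0.40 and 0.41 in normoxia siControl, 0.54, 0.49 and 0.51 in normoxia siARNT, 0.36, 0.39 and 0.38 in hypoxia siControl, and 0.53, 0.52 and 0.53 in hypoxia siARNT. All 6 siARNT libraries lay above all 6 siControl libraries. The difference was 0.12 ± 0.019 in normoxia and 0.15 ± 0.0094 in hypoxia (SE), and the log2 ratio rose by 0.70 (edgeR adjusted p 0.0114) and 0.89 (adjusted p 0.00254). The calls held in 10 and 12 of 12 fits with 1 library left out. The level of PAM RNA was 383 CPM in both normoxia groups. Reads into the block (616) exceeded reads out of it (51.0), and skipping the second exon alone had 475 reads against 285 for both.

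NT5C3A, a pyrimidine 5′-nucleotidase, lost inclusion of a 52 and 81 nt block (chromosome 7, 33069241 to 33075597). PSI was 0.38, 0.40 and 0.36 against 0.26, 0.24 and 0.28 in normoxia, and 0.41, 0.42 and 0.36 against 0.32, 0.24 and 0.21 in hypoxia. The groups did not overlap, with edgeR adjusted p 0.0269 and 0.0247, and the calls held in 6 and 8 of 12 fits with 1 library left out. A second listing of the block, with its first exon 3 nt longer, uses the same skipping reads and was called in hypoxia (adjusted p 0.0479). The joint skip was 11.0% of skips, since 930 reads per library skipped the second exon alone. In the first listing 5.0 reads per library entered the block and 140 left it. With the last junction alone the log2 ratio was -0.86 in normoxia and -0.94 in hypoxia (edgeR adjusted p 0.0483 and 0.0477). With the first alone it was -1.3 and -2.51 (adjusted p 0.444 and 0.24).

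NPIPA8 and NPIPA9 belong to a family of near-identical genes on chromosome 16, so their 3 blocks (each 70 and 103 nt) can hold the same reads and count as 1 observation of uncertain origin. PSI of the NPIPA9 block at 16443086 to 16443870 was 0.26, 0.23 and 0.22 in normoxia siControl and 0.12, 0.07 and 0.11 in normoxia siARNT. In hypoxia it was 0.20, 0.16 and 0.22 in siControl and 0.13, 0.12 and 0.09 in siARNT. The log2 ratio fell by 1.52 (edgeR adjusted p 0.000579) and 0.90 (adjusted p 0.0364), calls that held in 12 and 5 of 12 fits with 1 library left out.

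**Figure D4:**
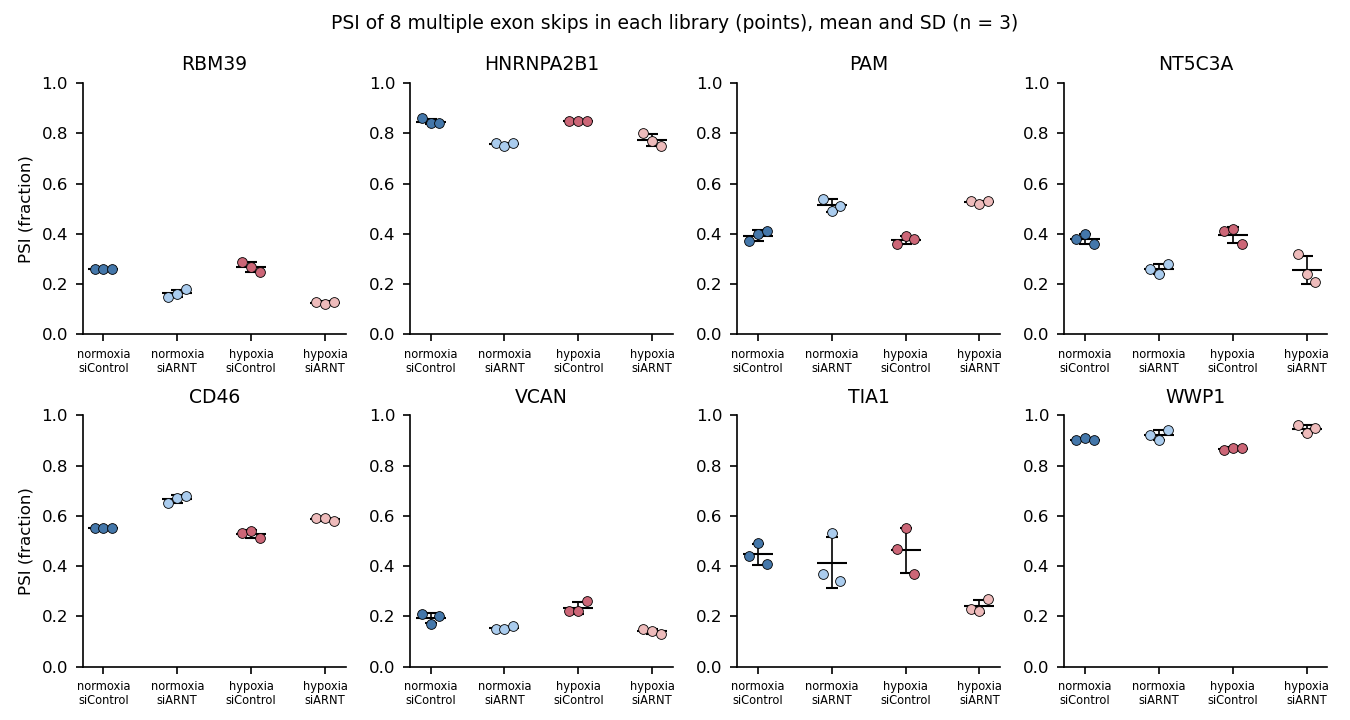
PSI (fraction, 0 to 1) of 8 multiple exon skips in each of 12 libraries; points are libraries A, B and C, bars the mean and SD of 3. RBM39, HNRNPA2B1 and NT5C3A are lower, and PAM is higher, with siARNT under both oxygen levels.

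CD46, a complement regulator on the cell surface, was called in normoxia. Its exons 7 and 8 (45 nt each, chromosome 1, 207940952 to 207941168) code for part of a stretch rich in serine, threonine and proline, and the skipping junction is annotated. PSI was 0.55 in each normoxia siControl library and 0.65, 0.67 and 0.68 in normoxia siARNT, a difference of 0.117 ± 0.0088 (SE). The log2 ratio rose by 0.73 (SE 0.13, edgeR adjusted p 0.00722) and the call held in 12 of 12 fits with 1 library left out. In hypoxia PSI was 0.53, 0.54 and 0.51 in siControl and 0.59, 0.59 and 0.58 in siARNT, which did not overlap but was not called (adjusted p 0.248). Reads left exon 8 at 1810 per library, entered exon 7 at 32.1 and linked the 2 exons at 47.5. Exon 8 was thus mostly used without exon 7. PSI averages these unlike junctions, so its level is not the inclusion of exon 8. CD46 RNA stood at 644 and 525 CPM in normoxia siControl and siARNT.

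Other blocks called in normoxia had lower inclusion with siARNT in OPTN, an autophagy receptor, and in ADGRE5, the adhesion receptor CD97. OPTN exons 2 to 3 of OPTN-204, in the 5′ UTR, had PSI 0.44, 0.40 and 0.50 against 0.30, 0.21 and 0.30 (edgeR adjusted p 0.0456). The ADGRE5 block printed above, which codes for EGF-like repeats, had 0.28, 0.32 and 0.27 against 0.21, 0.16 and 0.18 (adjusted p 0.0401). In ADGRE5 99.0 reads entered the block and 3.83 left it. Each of these 2 calls held in 4 of 12 fits with 1 library left out. RFC5, a clamp loader subunit, had 0.17, 0.21 and 0.22 against 0.03, 0.05 and 0.07 (adjusted p 0.0255, held in 7 of 12 such fits), with 1.75 reads entering and 18.6 leaving. These directions rest on the end with more reads: with the other end alone the log2 ratio was 0.07 in OPTN, 0.87 in ADGRE5 and 1.12 in RFC5.

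CTNND1, which encodes p120-catenin of adherens junctions, had 3 called blocks of higher inclusion that share the same last junction. That junction had 58.3 reads per library in normoxia siControl and 127 in normoxia siARNT. For the block of 119 and 289 nt matched to CTNND1-205, PSI was 0.49, 0.55 and 0.57 against 0.63, 0.63 and 0.58 (edgeR adjusted p 0.0358, held in 6 of 12 fits with 1 library left out). Without the inner junction, as tested, the share kept was 0.276, 0.345 and 0.363 against 0.486, 0.549 and 0.492. The overlapping gene ID ENSG00000254462.1 lists 2 further called events with the same reads. The 5 listings count as 1 change at that junction.

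PSI differences were small in DDC and DDX1, whose blocks were nearly always kept. DDC, aromatic L-amino acid decarboxylase, had PSI 0.97, 0.96 and 0.98 in normoxia siControl and 0.98, 0.99 and 0.99 in normoxia siARNT (edgeR adjusted p 0.0257), and its ends differed by 2.07 times. DDX1, an RNA helicase, had 0.98 in each normoxia siControl library against 0.96, 0.97 and 0.97 (adjusted p 0.0445), while its RNA fell from 335 to 160 CPM (adjusted p 2.28e-05). The calls held in 8 and 4 of 12 fits with 1 library left out. In DDX1 the skipping reads were 24, 18 and 24 against 39, 14 and 16. Its higher share of skipping thus came with fewer inclusion reads.

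**Figure D5:**
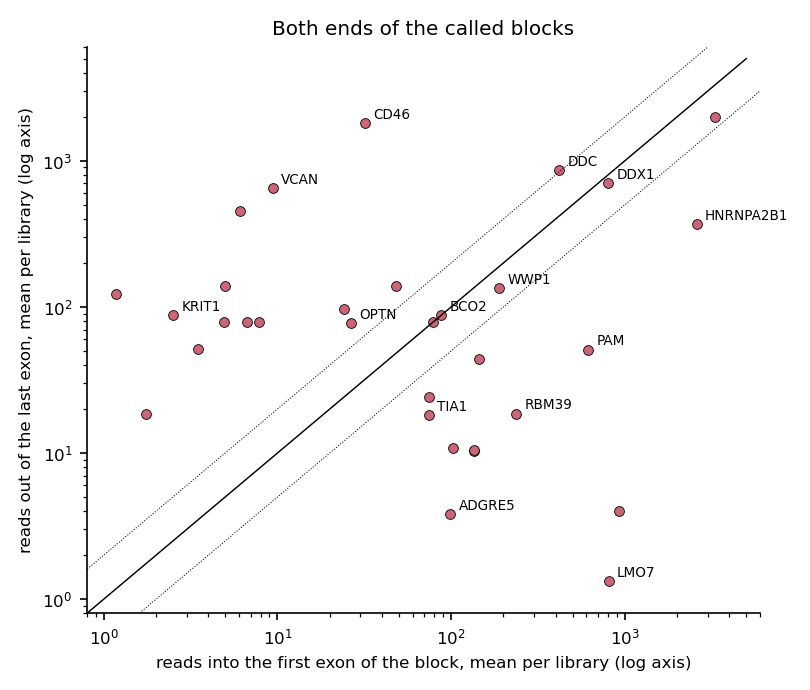
Mean reads per library into the first exon (horizontal) and out of the last exon (vertical) of each block called among the well covered events, on log axes; the solid line marks equal reads and the dotted lines a ratio of 2. BCO2, WWP1 and DDX1 lie between the dotted lines, and CD46, VCAN and LMO7 far from them.

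In hypoxia, VCAN, the matrix proteoglycan versican, lost inclusion with siARNT. Its block of 458 and 2961 nt (chromosome 5, 82814352 to 82818128) includes a large exon that codes for a glycosaminoglycan attachment region. PSI was 0.22, 0.22 and 0.26 in hypoxia siControl and 0.15, 0.14 and 0.13 in hypoxia siARNT, against 0.21, 0.17 and 0.20 and 0.15, 0.15 and 0.16 in normoxia. The log2 ratio fell by 0.88 in hypoxia (SE 0.15, edgeR adjusted p 0.00335), in 12 of 12 fits with 1 library left out and with DESeq2 and limma. In normoxia it was -0.43 (adjusted p 0.153). VCAN RNA stood at 7170 CPM in hypoxia siControl and 3340 in hypoxia siARNT (adjusted p 8.17e-06). Reads out of the 2961 nt exon (654) far exceeded reads into the 458 nt exon (9.42).

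TIA1, a regulator of 5′ splice sites and of stress granules, had PSI 0.47, 0.55 and 0.37 in hypoxia siControl and 0.23, 0.22 and 0.27 in hypoxia siARNT for a block of 33 and 119 nt. The groups did not overlap (difference -0.223 ± 0.054 SE, edgeR adjusted p 0.0404), and the call held in 3 of 12 fits with 1 library left out. KRIT1, of a junction complex in endothelium, had 0.65, 0.57 and 0.62 against 0.36, 0.43 and 0.42 for exons 3 to 4 of KRIT1-204 in the 5′ UTR (adjusted p 0.0483, held in 1 of 12 such fits). MRPS6, a mitochondrial ribosome protein, had 0.76, 0.81 and 0.74 against 0.51, 0.57 and 0.41 (adjusted p 0.0378, held in 5 of 12), with 3.5 reads entering and 51.7 leaving. With the first junction alone the PSI difference was 0.007 in KRIT1 and 0.005 in MRPS6, the opposite direction.

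WWP1 and BCO2 were the blocks called in hypoxia with a matched coding transcript and even ends. WWP1, a HECT ubiquitin ligase, had PSI 0.86, 0.87 and 0.87 in hypoxia siControl and 0.96, 0.93 and 0.95 in hypoxia siARNT, with skipping reads of 36, 18 and 24 against 8, 9 and 6. Its log2 ratio rose by 1.35 (SE 0.30, edgeR adjusted p 0.0263), and its 205 nt block (exons 6 to 7 of WWP1-202) is not a multiple of 3. BCO2 had 0.97, 0.94 and 0.91 against 0.85, 0.85 and 0.80, with skipping reads of 6, 7 and 11 against 17, 12 and 10 (fall of 1.66 on the log2 scale, adjusted p 0.0464). BCO2 RNA fell from 70.2 to 40.1 CPM (adjusted p 0.000123). The calls held in 7 and 3 of 12 fits with 1 library left out.

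Hypoxia in siControl called 1 well covered block, in ENSG00000168614.13, a gene ID that the table of names does not pair with a symbol (173 and 109 nt, chromosome 1, 144826933 to 144827928). PSI was 0.56, 0.61 and 0.61 in normoxia siControl and 0.70, 0.91 and 0.88 in hypoxia siControl (edgeR adjusted p 0.0162), and 0.57, 0.68 and 0.70 in normoxia siARNT and 0.69, 0.61 and 0.64 in hypoxia siARNT. Reads into the block were 25.7, 20.3, 247 and 23.0 per library in the group means (normoxia siControl and siARNT, then hypoxia siControl and siARNT), and reads out of it were 59.0 to 95.7. The mean of both ends was 56.5, 225 and 201.5 in hypoxia siControl A, B and C, against 82.5, 45.0 and 42.5 in normoxia siControl. The high mean in hypoxia siControl thus came from libraries B and C. The same block was lower with siARNT in hypoxia (adjusted p 0.0289). For hypoxia the log2 ratio was 3.63 with the first junction alone (adjusted p 0.278) and 0.44 with the last alone (adjusted p 0.768), against 2.14 with both. Both calls held in 7 of 12 fits with 1 library left out. Exons of 173 and 109 nt also occur in the NBPF20 block described earlier, whose reads cannot be placed with certainty. Whether the block of ENSG00000168614.13 shares reads with other genes was not tested.

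With at least 20 reads of each form per library, which left 563 multiple exon skips among 5817 events, hypoxia in siControl called 7 (1.24%, against 0.911% of all kinds) and hypoxia in siARNT 2 (0.355%, against 0.413%). This minimum was chosen after the data had been seen, and apart from the block above these events were not called among well covered events, where their adjusted p was 0.0547 to 0.107. Besides the block above, those called for hypoxia in siControl were in ANAPC16, LETMD1, ANXA2, ASPH, SLC35D2 and CASK. Inclusion was lower in LETMD1, ASPH, SLC35D2 and CASK. The share of lower calls over all kinds was not computed. CASK, a scaffold kinase of cell junctions, had PSI 0.64, 0.76 and 0.69 in normoxia siControl and 0.51, 0.55 and 0.46 in hypoxia siControl (log2 ratio -1.11, SE 0.25, edgeR adjusted p 0.0421). LETMD1, a mitochondrial membrane protein, had 0.74, 0.72 and 0.77 against 0.56, 0.60 and 0.58 (adjusted p 0.0312), with 3.25 reads entering and 142 leaving. ANAPC16, a subunit of the anaphase-promoting complex, had 0.46, 0.44 and 0.49 against 0.27, 0.34 and 0.24 (adjusted p 0.0417). Its last junction had 0, 31 and 0 reads in hypoxia siControl, so the 2 libraries at 0 are those with the lowest PSI. In ANXA2, which encodes annexin A2, the last junction had 0 reads in the 3 hypoxia siControl libraries (adjusted p 0.0312). No direction is drawn for ANAPC16 or ANXA2.

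Under siARNT the same oxygen comparison gave CASK PSI 0.64, 0.62 and 0.63 in normoxia and 0.56, 0.63 and 0.63 in hypoxia, and ANAPC16 0.45, 0.42 and 0.42 and 0.43, 0.40 and 0.41. LETMD1 had 0.65, 0.64 and 0.64 in normoxia siARNT and 0.58 in each hypoxia siARNT library. The interaction called none of these blocks. WSB1, a ubiquitin ligase adaptor, and EPB41L1, a membrane skeleton protein, were the 2 called for hypoxia in siARNT (adjusted p 0.0224 for both), each lower in hypoxia.

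Groups of host genes were described by counts. Of 128 splicing regulators 67 had a block (130 events, 42 well covered, median PSI 0.968), and 2 of the 42 were called for siARNT in normoxia (RBM39 and HNRNPA2B1) and 3 in hypoxia (with TIA1), all lower. Over all well covered multiple exon skips 2.03% and 1.59% were called. Of 80 HIF pathway genes and targets only 12 had a block (27 events, 7 well covered), and 0 were called in the 5 comparisons by either fit. At an unadjusted p under 0.05 there were 5, 1, 4, 0 and 3 of its 25 tested events, against 4.22%, 3.23%, 5.15%, 4.5% and 3.92% of all multiple exon skips. Of 134 genes of adhesion, cytoskeleton and polarity 65 had a block (157 events, 51 well covered), and the called ones among the 51 were CTNND1 in normoxia (3) and LMO7 in hypoxia (1). At an unadjusted p under 0.05 it had 17, 6, 16, 8 and 7 of 144 tested events.

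The list of genes with reported hypoxic splicing had 90 events in 27 genes, 25 well covered, with 0 called for hypoxia in siControl. Of the 25, 4 were called for siARNT in normoxia (3 listings of CTNND1 that share 1 junction, and HNRNPA2B1) and 1 in hypoxia (HNRNPA2B1), against 2.03% and 1.59% of all well covered multiple exon skips. The lists for chromatin and transcription (83 events) and for DNA repair, cell cycle and apoptosis (114 events) had 0 calls. Their most read tested blocks were in MORF4L2, a chromatin reader (PSI 0.94 to 0.96 in all 12 libraries), and DAP3. Over all members, the median PSI difference was 0.0 for hypoxia in siControl, -0.0033 in siARNT, 0.0 for siARNT in normoxia and -0.0033 in hypoxia, and list medians lay between -0.0067 and 0.0033.

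The level of the genes that hold a multiple exon skip was tested on gene counts, a test whose calls cannot be set against those for inclusion. Of 2749 host genes tested, 1023 (37.2%, against 25.3% of all genes) were called for hypoxia in siControl and 114 (4.15%, against 4.09%) for hypoxia in siARNT. For siARNT 744 (27.1%, against 20.2%) were called in normoxia and 1084 (39.4%, against 29.1%) in hypoxia. Genes with a block are also those with more reads, and the part of depth in these shares was not tested.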

How the data were processed

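The deposited event files hold, per the file headers, counts of reads on splice junctions, exon coverage (a signal, not tested here) and PSI (a fraction) for 12 libraries; the submitters' processing notes name Trimmomatic, STAR 2.4.2a and GRCh38.p10, and the event tool is not given in the sources used here. Coordinates did not match GRCh38, so they are printed unconverted. The deposited PSI was recomputed from the counts within 0.00501 in 100% of values. Per the labels, libraries were stranded. Deposited gene counts gave CPM and host gene tests (edgeR, TMM).

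The members and lists were chosen with earlier results of these data known. Groups and letters came from the titles. Inclusion reads (mean of first and last junction) and skipping reads were fitted with edgeR 4.0.16 (R 4.3.3), a term per sample and inclusion per group, on all 12 libraries, with robust quasi-likelihood tests adjusted over all events. DESeq2 1.42.0 and limma 3.58.1 (log2 of reads + 0.5) were alternatives. In simulated data on the 11169 well covered events for hypoxia in siControl, 31% of 2-fold and 94.5% of 4-fold changes were recovered. The simulation gave all events the same spread and had no uneven ends or missing junctions. Its rates are thus no measure of power in the real data.

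Events named by rule were called events of the fit to all tested events with a PSI difference of at least 0.05 and no overlap, the 8 most read genes with PSI 0.2 to 0.8, the 3 with most exons, the 3 longest, and per list the called or most read event. All others, including ESD and those of the well covered fit or of at least 20 reads, were chosen after their values were seen. Blocks were matched to GENCODE 29 by exon and intron lengths. Intervals are replicate spread; reads carry no molecular identifiers.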

Additional observations from a re-analysis of the deposited data

How the results depend on the processing

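In the fit to all tested events the counts of 1, 0, 0, 1 and 0 calls (the order is hypoxia within siControl, then within siARNT; the knockdown within normoxia, then within hypoxia; and the interaction) became 0 in all 5 with the first or last junction alone, the smaller of both, or no filter on the mean. They were 10, 5, 22, 9 and 8 with DESeq2 and 1, 2, 0, 3 and 2 with limma. With a mean of at least 50 reads the interaction had 1. With no minimum for either form, hypoxia in siControl had 0. With only the samples compared, the 4 pairwise counts were 0, 0, 1 and 0, and with a PSI difference of at least 0.1 siARNT in hypoxia had 0. Leaving out 1 library gave 0 to 2, 0 to 1, 0 to 1, 0 to 3 and 0 to 1 calls.

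Among well covered events the counts were 1, 0, 23, 18 and 0. They were 0, 0, 6, 5 and 0 with the first junction alone, 0, 0, 11, 5 and 0 with the last, and 2, 0, 12, 13 and 0 with all inclusion junctions. DESeq2 gave 2, 1, 9, 7 and 0, limma 0, 0, 4, 3 and 0, and a PSI difference of at least 0.1 gave 1, 0, 12, 9 and 0. With libraries at 0 kept they were 1, 0, 4, 3 and 1, with at least 20 reads 7, 2, 30, 18 and 0, and with libraries at 0 left out and no other minimum 0 in all 5. With only the samples compared the pairwise counts were 1, 0, 24 and 5. Leaving out 1 library gave 0 to 4, 0 to 1, 6 to 28, 5 to 18 and 0 to 1. The causes were not tested.

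Deviations of same-lettered libraries of one siRNA correlated at r from -0.024 to 0.099 (median 0.035, 6 pairs). For different letters of one siRNA r ran from -0.125 to 0.085 (median -0.015, 12 pairs). Such correlations cannot decide whether the letters mark shared wells or batches. Replicate A had the most gene counts in every group: 75.62 and 84.34 M in normoxia siControl and siARNT, and 68.88 and 53.53 M in hypoxia. With the replicate block the counts were 1, 0, 0, 0 and 0 over all tested events and 1, 0, 23, 17 and 0 among well covered events. With a replicate block by well (hypoxia comparisons and interaction only) both were 0, 0 and 0.

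The direction of the log2 ratio turned with the first junction alone in OPTN (0.07), DDB1 (-0.03), RFC5 (1.12), ARPC1A (-0.27) and MRPS6 (0.36), and with the last alone in ADGRE5 (0.87). The PSI difference turned when recomputed from the first junction in OPTN (0.007), DDB1 (-0.001), RFC5 (0.02), ENSG00000138041.11 (0.003), ARPC1A (-0.027), MRPS6 (0.005) and KRIT1 (0.007), and from the last in ADGRE5 (0.011). PAM RNA in normoxia went from -0.00 to 0.03 (log2) with total counts as scaling. Of all log2 ratios of called well covered events under the alternatives, 456 kept their call, 453 kept the direction without it and 6 turned.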

Other observations

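Some blocks had whole groups at 0 skipping reads. ESD, which encodes S-formylglutathione hydrolase (71 and 99 nt, chromosome 13), had 8, 4 and 10 skipping reads in normoxia siControl and 7, 4 and 5 in hypoxia siARNT, but 0 in all 6 libraries of normoxia siARNT and hypoxia siControl. Its PSI was 0.97 to 0.98 in normoxia siControl and 0.96 to 0.98 in hypoxia siARNT, and the adjusted p of the interaction was 0.164 by edgeR. ARPC1B, described above, had 0.083 there. PLEKHA1 had 8, 8 and 8 skipping reads in normoxia siControl, 10, 0 and 0 in normoxia siARNT, 0 in each hypoxia siControl library, and 9, 6 and 0 in hypoxia siARNT.

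SLC35D2, a nucleotide sugar transporter, had even reads through its block (742 into, 886 within and 568 out of exons 5 to 6 of SLC35D2-201, 141 nt, coding). PSI was 0.97 in each normoxia siControl library and 0.95 in each hypoxia siControl library. ASPH, a hydroxylase of EGF-like domains, had 0.91, 0.92 and 0.91 in normoxia siControl and 0.88, 0.87 and 0.87 in hypoxia siControl, and 0.91, 0.91 and 0.90 against 0.86, 0.85 and 0.88 in siARNT. Its adjusted p in the well covered fit was 0.107 and 0.132 by edgeR. Reads through the ASPH block were uneven (15.8 into, 28.9 within and 9720 out of it per library). Changes in its PSI thus mostly follow the last junction, and its level averages in the nearly empty ones. LMO7, a LIM domain protein of cell junctions, had 806 reads into its 57 and 42 nt block and 1.33 out of it, and PSI 0.92, 0.93 and 0.93 in hypoxia siControl against 0.81, 0.87 and 0.89 in hypoxia siARNT (adjusted p 0.0464, held in 4 of 12 fits with 1 library left out).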
